A study of Caenorhabditis elegans with 9 samples.

Results

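The germ line of adult Caenorhabditis elegans hermaphrodites kept at 20°C was compared with that of worms kept at 15°C, gene by gene. The study sequenced poly-A RNA of germ lines extruded on day 6 of adulthood, in 3 groups of 3 libraries. Worms, wild type per the series title, were moved at adulthood to their temperature and to RNAi bacteria, and the germ line was pushed out of decapitated animals. The comparison uses 6 of the 9 libraries: 3 from worms at 20°C on bacteria with an empty RNAi vector (EV 20C) and 3 from worms at 15°C on the same empty vector (EV 15C). Both groups were thus fed the vector bacteria for the same 6 days. Since both were sampled on day 6 only, effects of temperature and of the pace of ageing or egg production cannot be told apart. The remaining libraries (iff-1 RNAi at 15°C) entered the estimate of the spread and the mean levels that filter and class genes, but not the fold changes. How many animals went into a library is not given in the labels, nor is whether the replicates were separate cultures, so p-values measure no more than the scatter among these libraries, which may be technical. Replicates are written r1, r2 and r3.

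The C. elegans gonad is a tube in which age runs with position. At its distal end the GLP-1/Notch receptor, switched on by a somatic cell, holds a pool of dividing stem cells through its target genes sygl-1 and lst-1. Cells that leave the pool enter meiosis and, in an adult hermaphrodite, grow into oocytes loaded with maternal RNA and protein. The body temperature of the worm follows its surroundings, and egg production is slower in the cold.

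Of 46245 genes in the deposited table, 8572 had a mean of at least 1 FPKM (fragments per kilobase of transcript and per 1000000 fragments mapped) over the 9 libraries and were tested, 8062 of them protein-coding. All 12 germ line markers were detected in every library, and their summed level was 5256, 5353 and 5363 FPKM in EV 20C, against 4858, 4862 and 4918 FPKM in EV 15C. Depth, estimated from the step between low values and the full transcript length, was 36.2 to 41.8 (in 1000000 fragments) in the 6 libraries, or 40.4 to 46.2 if 200 nt are taken off each length. The log2 values correlated across genes, a description in which genes are not replicates, at r = 0.975 to 0.982 within EV 20C, 0.974 to 0.979 within EV 15C and 0.968 to 0.976 across them. In each group 1 library stood apart: along the second principal component, with 16.36% of the variance, EV 20C r2 lay at -22.6 against 10.1 and -1.09, and EV 15C r3 at -11.4 against 14.5 and 19.6. These libraries also held the most RNA of intestine, muscle and cuticle within their groups, so counts of calls are also given without EV 15C r3 and EV 20C r2 together, called the set-apart pair, where they move by over 1.5 times.

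Many germ line transcripts differed, by little. With limma on log2(FPKM + 1), 2401 genes passed a Benjamini-Hochberg adjusted p of 0.05, of which 1656 (19.3% of those tested) were higher at 20°C and 745 (8.69%) were lower. Below, a fold change is given as its log2 ± limma's standard error. Counts of list members called are to be read against these shares of 19.3% higher and 8.69% lower. The median log2 fold change was 0.26 among the higher genes and -0.29 among the lower ones, against 0.03 over all tested genes. Only 13 genes (0.152%) rose and 48 (0.56%) fell at least 2-fold, and 1969 of the 2401 calls changed by under 0.5 on the log2 scale. Of all tested genes, 45.4% had no overlap between the EV 20C and EV 15C libraries, and an exact permutation test of 3 libraries against 3 cannot give a p below 0.1, so single genes rest on the limma fit, which borrows its spread from all genes. The counts depend on single libraries: the higher genes numbered 1091 without EV 15C r2, and the lower ones 397 without EV 15C r1, 423 without EV 15C r2 and 425 without EV 20C r3. Without EV 15C r3 and EV 20C r2 together, 870 genes were higher and 495 lower. Scaling also moved the balance, with 1228 higher and 1041 lower genes under median ratio scaling and 1261 and 1021 under quantile normalization. The median log2 fold change of all genes was -0.003 and 0.004 under these, and 0.06 when scaled without the 10 highest genes. List medians near 0 are to be read against this range.

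Among abundant genes, with a mean of at least 100 FPKM, the transthyretin-related gene ttr-45 was highest in relative terms at 20°C. It had 123, 198 and 139.1 FPKM in EV 20C, against 76.2, 79.5 and 82.7 in EV 15C (log2 0.91 ± 0.15, adjusted p = 0.00388). The Nanos-family RNA regulator gene nos-2 (WBGene00003784, WBcel235 chromosome II from 7065618 to 7067051, plus strand) had 196, 197 and 200.2 FPKM in EV 20C, against 123, 121.8 and 131 in EV 15C (log2 0.65 ± 0.03, adjusted p = 9.42e-05). The replicates of each group were close and the groups well apart, although nos-2 overlaps him-14 on the opposite strand. The genes C48B4.7 (0.64), T24D1.3 (0.57) and T21C9.13 (0.56), whose roles the files do not give, rose by similar amounts. On the lower side, rbm-3.1, named after mammalian RBM3, an RNA-binding protein that mammalian cells induce in mild cold, had 1563, 1365 and 1437 FPKM in EV 20C, against 2036, 2200.5 and 1984 in EV 15C (log2 -0.51 ± 0.06, adjusted p = 0.00127). All 3 libraries at 20°C lay below all 3 at 15°C. Its neighbour in name, rbm-3.2, chosen after its values were seen, had 4163, 3445 and 3704 FPKM in EV 20C, against 4482, 4645 and 4144 in EV 15C and did not pass (adjusted p = 0.0563), and reads shared by the pair cannot be told apart. The saposin-like gene spp-14 had 128, 164 and 98.0 FPKM in EV 20C, against 218, 205 and 410.5 in EV 15C (log2 -1.05 ± 0.27, adjusted p = 0.0227). It lost its call without EV 20C r3, and its highest value was in EV 15C r3. The germ line eIF5A gene iff-1, the RNAi target of the study, had 2665, 2442 and 2479 FPKM in EV 20C, against 2677, 2653 and 2510.0 in EV 15C, with overlapping ranges.

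The Notch targets sygl-1 and lst-1 of the stem cell pool were higher at 20°C, while the ranges of the receptor gene overlapped. Of 21 tested genes of Notch signalling and the choice between proliferation and meiosis, 8 rose and 0 fell (background 19.3% and 8.69%), with a median log2 fold change of 0.06 against 0.03 for all genes. Besides nos-2, the second Nanos gene of the list, nos-1, had 95.2, 90.7 and 87.8 FPKM in EV 20C, against 58.3, 62.5 and 65.7 in EV 15C (log2 0.55 ± 0.05, adjusted p = 0.000739). The Notch target sygl-1, which keeps germ cells undifferentiated, had 330.0, 354 and 352 FPKM in EV 20C, against 268, 251 and 268 in EV 15C (log2 0.40 ± 0.05, adjusted p = 0.00113). Its partner in that role, lst-1, had 163, 177 and 168 FPKM in EV 20C, against 127, 121.6 and 132 in EV 15C (log2 0.42 ± 0.05, adjusted p = 0.00107). In each of these genes the EV 20C libraries were all above the EV 15C libraries. The receptor gene glp-1 had 93.1, 99.5 and 97.7 FPKM in EV 20C, against 93.1, 98.3 and 97.8 in EV 15C (log2 0.01 ± 0.03, adjusted p = 0.920). The repressor gene gld-1, which promotes meiotic entry and was chosen after its values were seen, had 801, 806 and 818 FPKM in EV 20C, against 808, 800.4 and 805 in EV 15C. The ranges of both overlapped. So did those of a further Nanos gene of the list, nos-3, also chosen after its values were seen. It had 127, 132 and 126 FPKM in EV 20C, against 129, 125 and 132 in EV 15C (log2 -0.005 ± 0.04, adjusted p = 0.944). The count of rises was 5 without EV 15C r2 or without EV 20C r3.

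Of 37 DNA replication genes 20 rose, against a background of 19.3%, and 0 fell, with a list median of 0.14. The MCM helicase subunit gene mcm-3 had 194, 197 and 197 FPKM in EV 20C, against 166, 169.7 and 169 in EV 15C (log2 0.22 ± 0.02, adjusted p = 0.000739). The clamp loader gene rfc-4 had 283, 281 and 277 FPKM in EV 20C, against 240.2, 238 and 234.7 in EV 15C (0.24). The gene dut-1, whose product removes dUTP, had 463, 465 and 472 FPKM in EV 20C, against 377, 379.6 and 381 in EV 15C (0.30). Within each group these values differed by a few percent and the groups did not overlap. The kinase gene cdc-7, which fires origins, changed by 0.23. The rises covered the helicase (mcm-3, mcm-4, mcm-6 and mcm-7), primase, origin recognition, GINS, clamp and nucleotide synthesis genes, and the largest was 0.30. Without the set-apart pair 13 rose.

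Of 72 cell division genes 27 were higher and 4 lower (median 0.08). The B-type cyclin gene cyb-2.2 had 369, 380.0 and 377 FPKM in EV 20C, against 312, 311 and 314 in EV 15C (log2 0.26 ± 0.02, adjusted p = 0.000653). The outer kinetochore gene ndc-80 changed by 0.27, the chromokinesin gene klp-19 by 0.23 and the centromeric histone H3 gene hcp-3 by 0.29, each with no overlap between groups. Without the set-apart pair 17 rose. Meiotic chromosome genes were called both ways, 9 of 46 higher and 5 lower (median 0.04), shares close to the 19.3% and 8.69% of all tested genes. The checkpoint kinase gene chk-2, which starts pairing and break formation, had 9.20, 8.52 and 8.77 FPKM in EV 20C, against 12.7, 13.2 and 10.5 in EV 15C (log2 -0.41 ± 0.09, adjusted p = 0.0104). The gene spo-11, whose product makes the breaks, changed by 0.29, but was not called without EV 15C r3 and EV 20C r2 (adjusted p = 0.0685). The rises were 5 without EV 15C r2 and 1 without the set-apart pair, and the falls were 1 or 2 without that pair or any 1 of the EV 15C libraries, EV 20C r2 or EV 20C r3.

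Genes of oocyte growth and of the egg were the list with the highest median, 0.16, with 22 of 37 higher and 2 lower. The zinc finger gene pie-1, which keeps embryonic germ cells transcriptionally quiet, had 237, 219 and 216 FPKM in EV 20C, against 165, 168 and 174 in EV 15C (log2 0.40 ± 0.04, adjusted p = 0.000739). The enzyme gene gna-2, needed to make the chitin of the eggshell, had 182, 197 and 198 FPKM in EV 20C, against 148, 145 and 153 in EV 15C (log2 0.37 ± 0.04, adjusted p = 0.000969). The oocyte maturation gene oma-1 had 388, 386 and 388 FPKM in EV 20C, against 333, 326 and 339 in EV 15C (log2 0.22 ± 0.03, adjusted p = 0.00170), and its group ranges were far apart. The yolk receptor gene rme-2 (0.22), the chitin synthase gene chs-1 (0.24), the fertilization genes egg-1 (0.16) and egg-2 (0.13) and the Pumilio genes puf-6 (0.31) and puf-7 (0.32) were chosen from the list after their values were seen, and egg-2 was not called without EV 15C r3 and EV 20C r2. The 2 lower genes were the RNA-binding genes cpb-3 (-0.17) and daz-1 (-0.12), and these falls numbered 1 without EV 15C r1 or EV 20C r3 and 0 without EV 15C r2 or without the set-apart pair. Since the material is whole germ line, more oocytes and more RNA per oocyte cannot be told apart, and the same holds for every cell type below. PAR polarity and RAS-ERK genes had 2 of 22 called. The phosphatase gene lip-1, which restrains ERK and is switched on by Notch, had 124.4, 121.6 and 123.6 FPKM in EV 20C, against 95.5, 91.6 and 94.4 in EV 15C (log2 0.39 ± 0.04, adjusted p = 0.000653). The kinase gene pkc-3 changed by 0.25. The count was 6 without EV 20C r1.

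**Figure D1:**
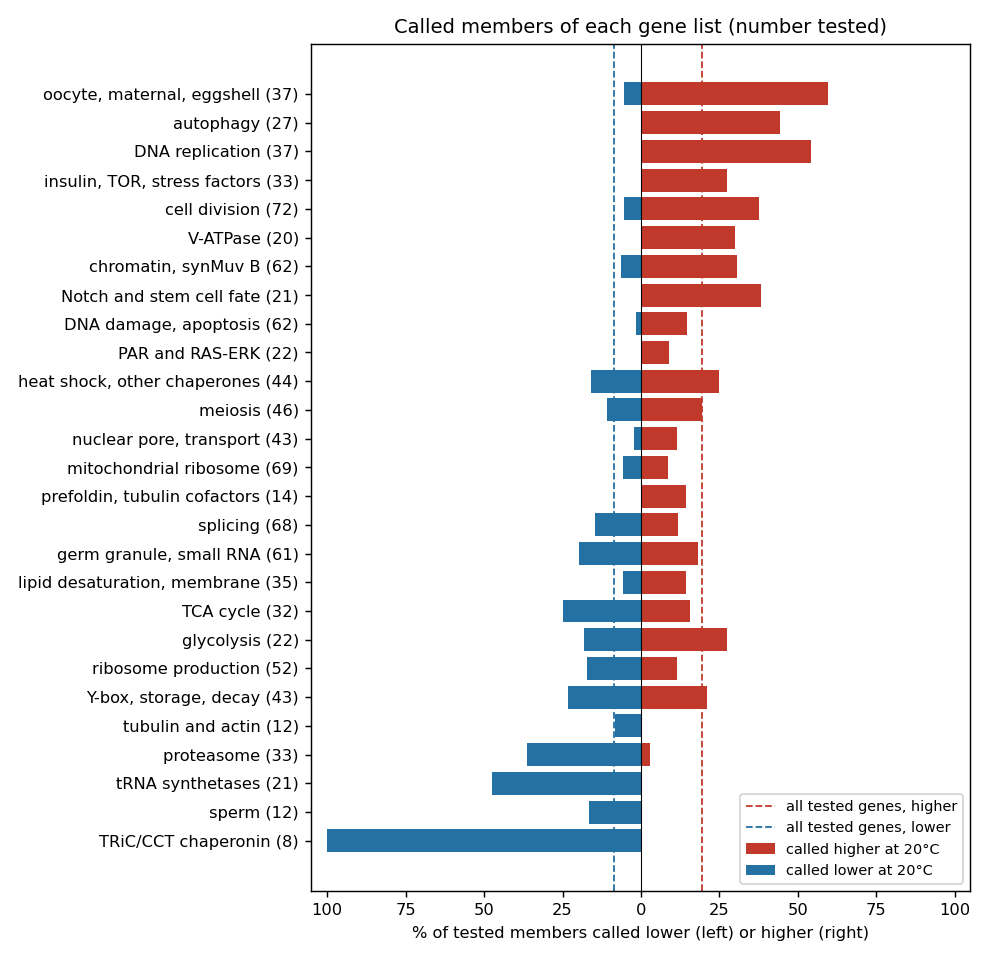
Share of the tested members of 27 gene lists called lower (blue, left) or higher (red, right) at 20°C, in percent, ordered by median log2 fold change, with dashed lines at the shares of all tested genes (8.69% lower, 19.3% higher). Oocyte and replication genes lie farthest right and the 8 chaperonin genes farthest left.

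Transcripts of the TRiC/CCT chaperonin, the double ring that folds newly made actin and tubulin, were lower at 20°C for all 8 subunit genes (background 8.69%), with a median log2 fold change of -0.23. The 8 falls were present with any 1 library left out, and 7 were left when libraries were scaled without the 10 highest genes, where cct-1 had an adjusted p of 0.0694. The subunit gene cct-5 (WBGene00000380, WBcel235 chromosome III from 4499188 to 4508114, minus strand) had 406, 386 and 389 FPKM in EV 20C, against 556, 539 and 536 in EV 15C (log2 -0.46 ± 0.03, adjusted p = 0.000417). The next largest change was in cct-3, with 123, 133 and 129.98 FPKM in EV 20C, against 162, 153 and 160.5 in EV 15C (-0.30). The smallest was in cct-1, with 299, 292 and 294 FPKM in EV 20C, against 324, 318 and 326 in EV 15C (-0.13). The changes were unequal, since the mean of cct-5 fell by 27.6%, that of cct-3 fell by 18.7% and that of cct-1 fell by 8.56%.

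Few genes for the partners and clients of the chaperonin were called. Prefoldin, which hands unfolded actin and tubulin to the chaperonin, and the tubulin-folding cofactors had 2 of 14 higher, coel-1 (0.52) and tbcc-1 (0.21), and 0 lower. Both of those calls were lost without EV 15C r2, EV 20C r2 or EV 20C r3, both also without the set-apart pair, that of coel-1 also without EV 15C r1, and that of tbcc-1 also without EV 15C r3, EV 20C r1 or iff-1 RNAi 15C r3. The prefoldin subunit gene nearest to the threshold was pfd-6, with 252, 222 and 227 FPKM in EV 20C, against 252, 271 and 250.2 in EV 15C (adjusted p = 0.107). The alpha-tubulin gene tba-2 had 1725, 1727 and 1741 FPKM in EV 20C, against 1754, 1744 and 1799.6 in EV 15C (adjusted p = 0.561). It was slightly lower in EV 20C, with no overlap between the groups. The beta-tubulin gene tbb-2 had 1801, 1954 and 1898 FPKM in EV 20C, against 1841, 1803 and 1893 in EV 15C (adjusted p = 0.624), and both were chosen after their values were seen. Of 12 tubulin and actin genes, 1 was called, the gamma-tubulin gene tbg-1 (-0.09), a call lost without any 1 of the EV 15C libraries, EV 20C r2, EV 20C r3 or the set-apart pair. The beta-tubulin gene tbb-1 had 774, 766 and 769 FPKM in EV 20C, against 0, 858 and 843 in EV 15C, and its value of 0 in EV 15C r1 can be a failed estimate. Its EV 20C libraries lay below the remaining EV 15C libraries, so the missing call says nothing of this gene. A 0 in 1 or more of the 6 libraries beside values over 20 FPKM occurred in 8 members of the lists, among them the leucyl-tRNA synthetase gene lars-1 and the eggshell gene cpg-3, and 0 of the 8 were called. The abundant actin gene act-2 had 1115, 1096 and 1089 FPKM in EV 20C, against 1138, 1170 and 1265 in EV 15C (adjusted p = 0.194). It was lower in EV 20C, with no overlap between the groups, but was not called. The actin gene act-3 was near the threshold, with 90.5, 82.9 and 83.7 FPKM in EV 20C, against 72.5, 67.3 and 77.3 in EV 15C (adjusted p = 0.0515), and was called higher with the 6 EV libraries alone, with a pseudocount of 0.1, at a mean of at least 5 FPKM, scaled without the 10 highest genes and without iff-1 RNAi 15C r2 or iff-1 RNAi 15C r3.

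**Figure D2:**
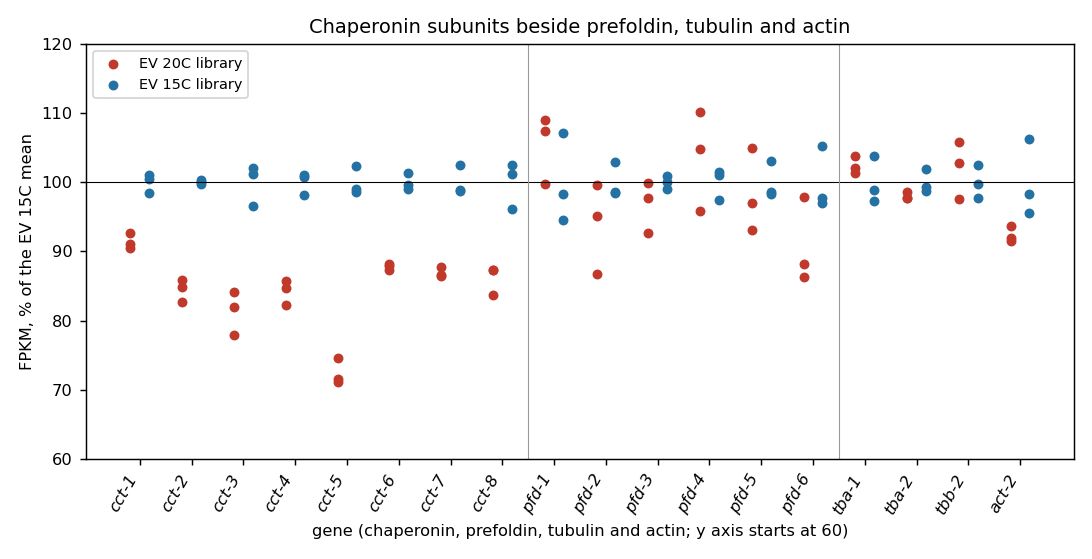
FPKM of each library as a percent of the gene's EV 15C mean (y axis, starting at 60) for the 8 chaperonin genes, 6 prefoldin genes and 4 tubulin and actin genes, with EV 20C libraries in red at the left of each gene and EV 15C libraries in blue. In all 8 chaperonin genes the 3 EV 20C points lie below the 3 EV 15C points, whereas most prefoldin and tubulin points mix.

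Other folding factors were called both ways. Of 44 chaperone genes 11 rose and 7 fell, but in the endoplasmic reticulum, where secreted proteins fold, 6 of 12 rose and 0 fell (median 0.14), and in mitochondria 2 of 4 fell and 0 rose (median -0.17). This division by compartment was made with the values known. The 4 X-linked genes of these 12, hsp-3, pdi-2, pdi-6 and dnj-7 (0.49), all rose. On the other chromosomes only crt-1 (0.18) and enpl-1 (0.16) of the endoplasmic reticulum genes rose. The protein disulfide isomerase gene pdi-2 had 127, 169 and 153 FPKM in EV 20C, against 96.8, 91.8 and 97.3 in EV 15C (log2 0.64 ± 0.09, adjusted p = 0.00213). The isomerase gene pdi-6 had 92.6, 115 and 109 FPKM in EV 20C, against 72.6, 66.6 and 66.3 in EV 15C (log2 0.61 ± 0.08, adjusted p = 0.00140). The BiP chaperone gene hsp-3 had 169, 225 and 196 FPKM in EV 20C, against 136, 128 and 126 in EV 15C (log2 0.59 ± 0.09, adjusted p = 0.00281). The second BiP gene, hsp-4, chosen after its values were seen, had 277, 242 and 254 FPKM in EV 20C, against 256, 268 and 250.5 in EV 15C and overlapping ranges. In pdi-2, pdi-6 and hsp-3 the highest value was that of EV 20C r2, which also had the highest levels of the gonadal sheath gap junction genes inx-8 and inx-9 among the EV 20C libraries. The gene inx-8 had 38.3, 74.5 and 60.1 FPKM in EV 20C, against 64.4, 59.2 and 80.4 in EV 15C. The gene inx-9 had 24.2, 37.5 and 30.3 FPKM in EV 20C, against 24.5, 23.02 and 28.03 in EV 15C, and neither was called. The part of sheath cells in the endoplasmic reticulum genes was not tested. All 3 genes kept their calls with any 1 library left out.

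In the cytosol, the HSP90 gene hsp-90 had 1739.8, 1743 and 1744 FPKM in EV 20C, against 2043, 2029.9 and 1961 in EV 15C (log2 -0.21 ± 0.04, adjusted p = 0.00527). The gene hsp-110, whose product resets HSP70, had 188, 189 and 196 FPKM in EV 20C, against 228, 222 and 229 in EV 15C (log2 -0.24 ± 0.03, adjusted p = 0.000832). The cytosolic HSP70 gene hsp-1 had 2281, 2121 and 2214 FPKM in EV 20C, against 2417, 2394 and 2453 in EV 15C and did not pass (adjusted p = 0.0656). In mitochondria hsp-75 (-0.31) and hsp-60 (-0.19) fell, the second of them not without EV 15C r1, EV 15C r2, EV 20C r2 or EV 20C r3. The small heat shock genes went different ways. The gene sip-1, for a small heat shock protein of oocytes and embryos, had 10452, 10348 and 10389.8 FPKM in EV 20C, against 7889, 8239 and 8042 in EV 15C (log2 0.37 ± 0.06, adjusted p = 0.00355). The gene hsp-12.6 had 0.133, 0.770 and 0.725 FPKM in EV 20C, against 3.59, 2.44 and 4.48 in EV 15C (log2 -1.55 ± 0.31, adjusted p = 0.00791). The first is among the most abundant transcripts in the table and the second is near the limit of the filter. The heat shock factor gene hsf-1 had 87.2, 91.6 and 90.2 FPKM in EV 20C, against 82.5, 85.7 and 82.1 in EV 15C, with no overlap between groups but an adjusted p of 0.0744. The call of hsp-90 was lost under quantile normalization. Apart from hsp-12.6, hsp-110, hsf-1 and the genes of the preceding paragraph that the naming rule gave, these were chosen after their values were seen, and the 7 falls of the chaperone list were 4 without EV 15C r1, EV 15C r2, EV 20C r3 or the set-apart pair.

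All calls among genes for charging tRNA were falls, while genes for making ribosomes and for splicing were called both ways. Of 21 cytosolic aminoacyl-tRNA synthetase genes 10 fell (47.6%, background 8.69%) and 0 rose (background 19.3%), with a median of -0.08. The glutamyl-tRNA synthetase gene ears-1 had 102, 109 and 104.9 FPKM in EV 20C, against 131, 128 and 127 in EV 15C (log2 -0.28 ± 0.04, adjusted p = 0.00177). The isoleucyl-tRNA synthetase gene iars-1 had 94.4, 97.6 and 95.2 FPKM in EV 20C, against 121.9, 118 and 110.2 in EV 15C (log2 -0.28 ± 0.04, adjusted p = 0.00241). The count was 6 without EV 15C r1 or EV 20C r3. In the nucleolus 9 of 52 genes fell (17.3%, background 8.69%) and 6 rose (11.5%, background 19.3%). The box C/D particle gene nol-56, which guides modification of ribosomal RNA, had 353, 302 and 335 FPKM in EV 20C, against 426, 422 and 413 in EV 15C (log2 -0.35 ± 0.07, adjusted p = 0.00833). The gene garr-1, of the box H/ACA particle, changed by -0.35. On the higher side, the exosome subunit gene exos-3 had 131, 121 and 126 FPKM in EV 20C, against 112, 112 and 111 in EV 15C (log2 0.17 ± 0.04, adjusted p = 0.00909). The gene nep-1 had 16.39, 19.4 and 18.5 FPKM in EV 20C, against 12.9, 14.6 and 14.03 in EV 15C (log2 0.36 ± 0.08, adjusted p = 0.0109), a call lost without the set-apart pair. It stands on the list by its symbol, which in C. elegans names a neprilysin-family protease. The falls numbered 3 without EV 15C r1, EV 15C r2, EV 20C r3 or the set-apart pair and 5 without EV 20C r2, and the rises 2 without EV 15C r1 or the set-apart pair and 3 without EV 15C r3. Outside the list, the polymerase I initiation factor gene tif-1A, among the abundant genes with the largest falls, had 87.8, 91.9 and 89.3 FPKM in EV 20C, against 119.4, 117 and 114.2 in EV 15C (log2 -0.38 ± 0.03, adjusted p = 0.000417).

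Splicing factor genes were called 8 higher (11.8%, background 19.3%) and 10 lower (14.7%, background 8.69%) of 68. Among them were rsp-2, an SR protein gene (0.27), and snr-3, a core Sm protein gene (-0.23). With 1 of EV 15C replicates 1, 2 and 3 or EV 20C r3 left out the rises were 2 or 3, and without EV 15C r1, EV 15C r2 or EV 20C r3 the falls were 5. The rises were 5 without iff-1 RNAi 15C r2 and 2 without the set-apart pair. Nuclear pore and transport genes had 5 of 43 higher, led by the inner nuclear membrane gene lem-2 with 85.7, 83.5 and 87.3 FPKM in EV 20C, against 61.5, 65.5 and 69.4 in EV 15C (log2 0.38 ± 0.04, adjusted p = 0.00107), and 1 lower. The rises were 3 without EV 15C r2 or the set-apart pair. The fall was lost without that pair and when EV 20C r1, EV 20C r3, iff-1 RNAi 15C r3 or any EV 15C library was left out. Of 33 proteasome genes 12 fell (36.4%, background 8.69%) and 1 rose (3.03%, background 19.3%). The core particle gene pbs-5 had 251, 239 and 243 FPKM in EV 20C, against 292, 294 and 282 in EV 15C (log2 -0.24 ± 0.03, adjusted p = 0.00111). The base ATPase gene rpt-4 had 294, 294 and 298 FPKM in EV 20C, against 325, 323 and 320.4 in EV 15C (-0.13), a call lost when libraries were scaled without the 10 highest genes. The falls were 7 and the rises 2 without the set-apart pair. Among uncalled members, pas-5 is listed at 0 in 5 of the 6 libraries.

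Storage and repression of maternal RNA gave calls in both directions. Of 43 genes of Y-box proteins, RNA storage and decay, 9 rose (20.9%, background 19.3%) and 10 fell (23.3%, background 8.69%). The share of rises was thus close to that of all tested genes. The lower ones included the translational repressors of storage granules. The 4E-binding protein gene ifet-1 had 348, 378 and 364 FPKM in EV 20C, against 467, 458 and 457 in EV 15C (log2 -0.34 ± 0.03, adjusted p = 0.000727). The DEAD-box helicase gene cgh-1 had 1735, 1685 and 1736 FPKM in EV 20C, against 1971, 1971 and 1939.9 in EV 15C (log2 -0.19 ± 0.03, adjusted p = 0.00514). The helicase gene laf-1 had 66.8, 83.5 and 78.0 FPKM in EV 20C, against 109, 104.7 and 102 in EV 15C (log2 -0.47 ± 0.07, adjusted p = 0.00277). Within each group the values of ifet-1 and cgh-1 were close, while those of laf-1 ran from 66.8 to 83.5 FPKM in EV 20C. In all of these genes the groups did not overlap, although the call of cgh-1 was lost under quantile normalization. The poly-A binding protein gene pab-1 (-0.21) and the granule gene car-1 (-0.29), chosen after their values were seen, fell with them, but not without EV 15C r3 and EV 20C r2 together. Decapping and deadenylation genes were among the higher ones. The decapping enzyme gene dcap-2 had 66.1, 68.5 and 67.0 FPKM in EV 20C, against 56.8, 57.4 and 58.2 in EV 15C (log2 0.22 ± 0.03, adjusted p = 0.00144). Chosen after their values were seen, the decapping activator gene patr-1 changed by 0.21 and the deadenylase gene ccf-1 by 0.26. The rises numbered 4 without EV 15C r1 and 5 without EV 20C r3, and 4 rose and 6 fell without the set-apart pair. Of the cold-shock domain genes, cey-2 had 3984, 3677 and 3799 FPKM in EV 20C, against 4389, 4399 and 4326 in EV 15C (log2 -0.20 ± 0.05, adjusted p = 0.0174), a call lost under quantile normalization (adjusted p = 0.817) and without EV 15C r1, EV 15C r2 or EV 20C r3. The gene cey-1 had 374, 389.6 and 373 FPKM in EV 20C, against 398, 402 and 380.3 in EV 15C. For cey-4 the values were 1214, 1150.3 and 1089 FPKM in EV 20C, against 1159.9, 1171 and 1102 in EV 15C, and both sets overlap. The gene cey-3 is listed at 0 in EV 15C r3 and between 1345 and 1507 FPKM in the other 5 libraries, and a single 0 of this kind can be a failed estimate.

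Germ granule and small RNA genes were called both ways, with 11 of 61 higher and 12 lower. The higher genes included genes of intrinsically disordered MEG proteins, which build P granules in the embryo and are loaded into the egg. The gene meg-1 had 147, 169 and 163 FPKM in EV 20C, against 126, 123.8 and 128 in EV 15C (log2 0.34 ± 0.05, adjusted p = 0.00357). The genes meg-3 (0.31) and meg-4 (0.40) rose as well. All 3 lie on chromosome X, as does meg-2, which was not called (0.18, adjusted p = 0.103) and had overlapping ranges. Helicase genes were among the lower ones, with drh-3 (-0.26) and rde-12 (-0.20) besides glh-1, rde-12 losing its call when libraries were scaled without the 10 highest genes. The Vasa-like helicase gene glh-1 had 249.7, 239 and 243 FPKM in EV 20C, against 311, 327 and 304 in EV 15C (log2 -0.36 ± 0.04, adjusted p = 0.000905). The Argonaute gene csr-1 had 195, 191 and 196 FPKM in EV 20C, against 220.4, 221 and 222 in EV 15C (log2 -0.19 ± 0.02, adjusted p = 0.00114), while the Argonaute gene ergo-1 rose (0.17). The gene henn-1, whose product methylates piRNA ends, had 56.7, 57.3 and 57.2 FPKM in EV 20C, against 71.001, 68.5 and 68.7 in EV 15C (log2 -0.28 ± 0.03, adjusted p = 0.000832). The granule genes simr-1 (-0.34) and znfx-1 (-0.34) fell too. In contrast pgl-1, a scaffold of the same granules, had 379, 380.1 and 385 FPKM in EV 20C, against 373, 387 and 372 in EV 15C, with overlapping ranges. The call of znfx-1 was lost without EV 15C r3 and EV 20C r2 together. The MEG genes, drh-3, rde-12, ergo-1, znfx-1 and pgl-1 were chosen after their values were seen. The rises numbered 7 without EV 15C r1 and 5 without EV 15C r2, and the falls 7 without EV 15C r1, EV 15C r2, EV 20C r1 or EV 20C r3, and 5 rose and 6 fell without the set-apart pair.

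Chromatin genes were higher at 20°C for 19 of 62 (30.6%) and lower for 4 (6.45%), against 19.3% and 8.69% of all tested genes. Variant histones were among the most abundant of them. The H2A.Z gene htz-1 had 1132, 1003 and 1017 FPKM in EV 20C, against 811, 825 and 849 in EV 15C (log2 0.34 ± 0.05, adjusted p = 0.00254). The H3.3 gene his-72 had 674, 622 and 602 FPKM in EV 20C, against 503, 509 and 499 in EV 15C (log2 0.33 ± 0.04, adjusted p = 0.00134). The linker histone gene hil-4 had 807, 747 and 742 FPKM in EV 20C, against 576, 597 and 617 in EV 15C (log2 0.36 ± 0.06, adjusted p = 0.00297). The linker histone gene hil-1 went the other way at a far lower level, with 4.42, 6.34 and 6.31 FPKM in EV 20C, against 10.7, 10.7 and 11.4 in EV 15C (log2 -0.84 ± 0.13, adjusted p = 0.00265). Both hil genes were chosen after their values were seen. The COMPASS subunit gene wdr-5.1, part of the enzyme that methylates histone H3 at active promoters, changed by 0.22. The rises were 12 without EV 15C r1 and 11 without the set-apart pair, and the falls 2 without that pair or any 1 of the EV 15C libraries. In DNA damage and apoptosis, 9 of 62 rose (14.5%, under the background of 19.3%) and 1 fell (1.61%, background 8.69%). It was rfs-1, the RAD-51 paralogue gene, with 9.64, 10.7 and 10.5 FPKM in EV 20C, against 18.7, 18.4 and 17.1 in EV 15C (log2 -0.75 ± 0.08, adjusted p = 0.000832). Its mean fell by 42.9%, and the groups did not overlap. The rises were 4 without EV 15C r3, 5 without EV 20C r3 and 3 without the set-apart pair. The falls were 2 without EV 20C r2 or iff-1 RNAi 15C r1 and 3 without iff-1 RNAi 15C r3.

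Of 27 autophagy and lysosome genes 12 rose and 0 fell, against 19.3% and 8.69% of all tested genes, with a median log2 fold change of 0.15, and between 10 and 13 rose with any 1 library left out. The Beclin gene bec-1, part of the lipid kinase complex that starts the autophagosome, had 63.0, 62.5 and 60.4 FPKM in EV 20C, against 46.2, 47.6 and 49.5 in EV 15C (log2 0.37 ± 0.04, adjusted p = 0.000653). The protease gene atg-4.1 had 29.99, 29.6 and 30.4 FPKM in EV 20C, against 24.4, 23.9 and 24.6 in EV 15C (log2 0.29 ± 0.04, adjusted p = 0.00212). The E1-like enzyme gene atg-7 had 46.2, 48.3 and 44.0 FPKM in EV 20C, against 40.3, 38.4 and 39.04 in EV 15C (log2 0.23 ± 0.04, adjusted p = 0.00582). In all of these the groups did not overlap. The initiating kinase gene unc-51 had 12.8, 15.7 and 14.3 FPKM in EV 20C, against 10.5, 10.3 and 10.8 in EV 15C (0.40). Its complex partner epg-9 had 16.06, 18.7 and 17.5 FPKM in EV 20C, against 12.8, 12.02 and 13.3 in EV 15C (0.42), both chosen after their values were seen. The abundant ubiquitin-like gene lgg-1, which coats the autophagosome membrane, had 449, 474 and 444 FPKM in EV 20C, against 449.7, 439 and 441 in EV 15C, with overlapping ranges. Of 20 genes of the V-ATPase, the proton pump of the lysosome, 6 rose and 0 fell. The subunit gene vha-8 had 197, 194 and 193 FPKM in EV 20C, against 172, 163 and 174 in EV 15C (log2 0.20 ± 0.03, adjusted p = 0.00219). The subunit gene vha-12 had 127, 143.3 and 137 FPKM in EV 20C, against 116, 103.9 and 109 in EV 15C (log2 0.31 ± 0.05, adjusted p = 0.00509). That count was 3 without EV 15C r1, EV 15C r2, EV 20C r3 or the set-apart pair.

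Of 33 genes of insulin, TOR and stress signalling 9 rose (27.3%, background 19.3%) and 0 fell (background 8.69%), with a median of 0.09. The kinase gene pdk-1, which activates AKT below the insulin receptor, had 11.4, 12.21 and 12.29 FPKM in EV 20C, against 7.41, 7.22 and 7.58 in EV 15C (log2 0.63 ± 0.07, adjusted p = 0.00109). The AMP-activated kinase gene aak-2 had 13.4, 15.8 and 15.5 FPKM in EV 20C, against 9.93, 9.35 and 9.65 in EV 15C (log2 0.58 ± 0.08, adjusted p = 0.00213). The Rictor subunit gene of TOR complex 2, rict-1, had 63.6, 58.95 and 63.9 FPKM in EV 20C, against 47.5, 48.8 and 50.3 in EV 15C (log2 0.34 ± 0.04, adjusted p = 0.00140). In each of them the groups were separate. The unfolded protein response factor gene xbp-1 changed by 0.21. The rises were 5 without EV 15C r1, and 4 rose and 1 fell without the set-apart pair. Values of pdk-1 and aak-2, which overlap F21E9.2 and mec-4 on the opposite strand, are uncertain, as are those of the other genes with such an overlap among those named here.

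Central metabolism was called both ways. Of 32 TCA cycle genes 8 fell and 5 rose. The anaplerotic enzyme gene pyc-1, pyruvate carboxylase, had 106, 105.01 and 106 FPKM in EV 20C, against 132, 130.4 and 127 in EV 15C (log2 -0.29 ± 0.03, adjusted p = 0.000653). The aconitase gene aco-2 had 457, 473 and 472 FPKM in EV 20C, against 563, 543 and 534 in EV 15C (log2 -0.23 ± 0.04, adjusted p = 0.00352). The oxoglutarate dehydrogenase gene ogdh-2 changed by -0.35. The falls were 5 without EV 15C r1 or EV 20C r3, and the rises 1 without EV 15C r2 and 3 without EV 20C r3 or the set-apart pair. In glycolysis and gluconeogenesis 6 of 22 genes rose and 4 fell. Entry steps were among the rises, with the hexokinase genes hxk-1 (0.16) and hxk-2 (0.17, not called without EV 15C r3 and EV 20C r2), and so was a gluconeogenic step. The gluconeogenic gene fbp-1 had 118, 117 and 123 FPKM in EV 20C, against 99.9, 103.5 and 100.1 in EV 15C (log2 0.24 ± 0.03, adjusted p = 0.00156). The isomerase gene gpi-1, the next step after hexokinase, had 108, 115 and 117 FPKM in EV 20C, against 132, 129 and 129.6 in EV 15C (log2 -0.20 ± 0.03, adjusted p = 0.00394). The falls were 2 without EV 15C r1, EV 15C r3, EV 20C r1 or EV 20C r3, and 2 rose and 2 fell without the set-apart pair. Mitochondrial ribosome genes had 6 of 69 higher and 4 lower, fewer in share than all genes, and the rises were 1 or 2 without any 1 of the EV 15C libraries, EV 20C r1 or EV 20C r3, and 3 without the set-apart pair.

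Membrane lipid genes, which in ectotherms are known to adjust to temperature, had 5 of 35 called higher and 2 lower. The phosphatidylcholine synthesis genes pcyt-1 and ckb-2 rose. The gene pcyt-1, for the regulated enzyme of that pathway, had 18.5, 23.2 and 22.4 FPKM in EV 20C, against 12.4, 13.3 and 12.4 in EV 15C (log2 0.70 ± 0.08, adjusted p = 0.00120). The choline kinase gene ckb-2 had 10.5, 11.7 and 10.2 FPKM in EV 20C, against 7.45, 7.86 and 6.90 in EV 15C (log2 0.49 ± 0.10, adjusted p = 0.00967). The groups were separate for both, but ckb-2 was not called without EV 15C r3 and EV 20C r2 together. The desaturase gene fat-7, classically induced by cold in the intestine, is listed at 0 in 5 of the 6 libraries and was not tested. The desaturase gene fat-6 had 4.07, 10.7 and 5.80 FPKM in EV 20C, against 5.03, 3.95 and 13.6 in EV 15C. The desaturase gene fat-2 had 34.8, 44.9 and 30.1 FPKM in EV 20C, against 22.9, 23.1 and 49.9 in EV 15C, both chosen after their values were seen and both with overlapping ranges in which EV 15C r3 was highest. The cold-sensing channel gene trpa-1 was under the filter. Rises on this list were 3 without EV 15C r1, EV 20C r2 or iff-1 RNAi 15C r2 and 2 without EV 15C r2 or EV 20C r3, and falls were 1 without EV 15C r1, EV 15C r2 or EV 20C r3. Without the set-apart pair 1 rose and 1 fell.

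Scaling moved the balance of rises and falls in many lists. Under median ratio scaling the higher and lower genes numbered 6 and 2 of the Notch list, 23 and 8 of cell division, 6 and 7 of meiosis, 3 and 13 of ribosome production, 3 and 14 of splicing and 4 and 7 of the nuclear pore. They were 8 and 12 for the chaperones, 6 and 13 for RNA storage and decay, 5 and 13 for germ granules, 14 and 6 for chromatin and 6 and 4 for DNA damage. In metabolism they were 3 and 9 for the TCA cycle, 4 and 4 for glycolysis, 2 and 6 for the mitochondrial ribosome, 3 and 3 for membrane lipids, 3 and 1 for the V-ATPase and 6 and 2 for insulin and TOR. The replication list had 14 rises and 0 falls, the autophagy list 11 and 0, the oocyte list 18 and 2, the tRNA synthetases 0 and 12, and the chaperonin 0 and 8. Under quantile normalization the splicing list had 3 rises and 15 falls, cell division 22 and 10, ribosome production 3 and 16, and the nuclear pore 3 and 5. Scaling without the 10 highest genes moved the balance the other way, with 3 rises and 3 falls of the proteasome, 16 and 1 of DNA damage, 12 and 3 of the mitochondrial ribosome, 10 and 2 of meiosis and 13 and 7 of germ granules.

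Calls were spread unevenly over the chromosomes. In the germ line the X chromosome is known to be largely silent in mitotic and early meiotic cells and to be transcribed in late pachytene and in oocytes. Of 915 tested X-linked genes 25.5% were higher and 5.14% lower at 20°C, with a median log2 fold change of 0.16, against 18.7% and 9.03% of 7600 genes on chromosomes I to V and a median of 0.03. The contrast was wider among genes with a mean of 20 to 100 FPKM, where 76 of 145 X-linked genes (52.4%) and 662 of 3064 autosomal genes (21.6%) were higher. The shares of higher genes on X and on I to V were 10.2% and 5.57% at 1 to 5 FPKM and 29.04% and 17.2% at 5 to 20 FPKM. At 100 to 500 FPKM 7 of 29 X-linked genes (24.1%) were higher, a smaller share than the 27.4% on I to V, and 10.3% of each were lower. At 20 to 100 FPKM the median X-linked gene differed from the EV 15C mean by 0.15, 0.33 and 0.29 on the log2 scale in EV 20C, against 0.03, -0.03 and 0.00 in EV 15C. All 3 libraries at 20°C lay above all 3 at 15°C, with EV 20C r1 the lowest of its group. Over all 915 X-linked genes these medians were 0.02, 0.29 and 0.16 in EV 20C. In EV 15C they were 0.02, -0.02 and 0.00, so over all levels EV 20C r1 was not distinct from EV 15C. The share of FPKM that came from X-linked genes did not separate the groups. At 20 to 100 FPKM it was 3.17%, 3.69% and 3.49% in EV 20C, against 3.16%, 3.09% and 3.32% in EV 15C. Among all tested genes it was 1.998%, 2.198% and 2.329% in EV 20C, against 2.270%, 2.147% and 2.216% in EV 15C.

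X-linked genes were also more variable, with a median coefficient of variation of 13.4% in EV 20C and 7.87% in EV 15C, against 5.78% and 4.12% for chromosomes I to V. Over all levels the share of X-linked genes called higher was 14.8% without EV 15C r2 and 13.9% without EV 20C r3, against 12.5% and 13.1% for chromosomes I to V. Without EV 15C r3 and EV 20C r2 together it was 10.2% for X and 10.2% for I to V. At 20 to 100 FPKM the X share was 31.03% without EV 20C r3 and 32.4% without EV 15C r2, against 15.2% and 14.5%, and 23.4% against 11.5% without the set-apart pair. The endoplasmic reticulum genes pdi-2, pdi-6 and hsp-3, the MEG genes and pdk-1, aak-2, pcyt-1 and vha-12 are X-linked. No test of X against the other chromosomes was made, since genes are not replicates, and the part of oocytes, sheath and other cells in these values was not tested.

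**Figure D3:**
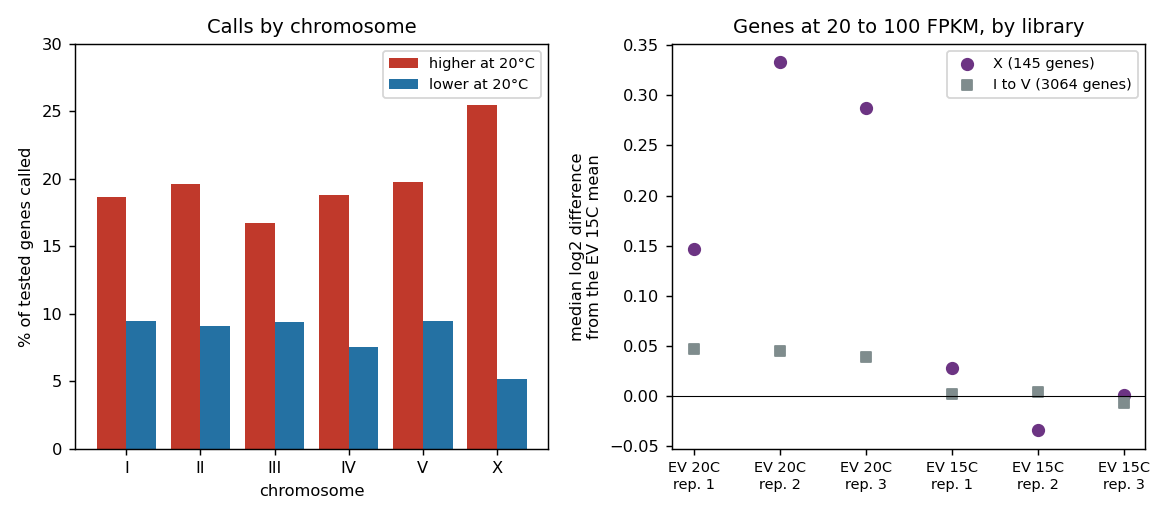
Left, share of tested genes called higher (red) or lower (blue) at 20°C by chromosome, in percent. Right, for genes at 20 to 100 FPKM, each library's median log2 difference from the EV 15C mean for X-linked genes (purple circles) and genes on I to V (grey squares). The X bar for higher genes is the tallest at 25.5%, and the X medians of the EV 20C libraries are 0.15, 0.33 and 0.29.

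Transcript length and level also went with the calls. Among protein-coding genes with a mean of at least 20 FPKM, the share called higher was 12.996% under 500 nt of exonic length, 25.4% from 500 nt, 32.3% from 1000 nt, 27.2% from 1500 nt, 15.8% from 2500 nt and 6.08% from 4000 nt, each up to the start of the next class. The shares called lower over the same classes were 9.75%, 6.27%, 6.75%, 9.88%, 13.3% and 10.8%. Genes of middle length were therefore called higher most often, and the part of RNA fragmentation or library size selection in this was not tested. By level, 6.35% of genes at 1 to 5 FPKM were higher and 8.16% lower, against 27.3% and 10.4% at 100 to 500 FPKM and 14.0% and 13.6% from 500 FPKM. Of 13 genes of the mitochondrial genome 8 were lower (61.5%, background 8.69%) and 1 higher (7.69%, background 19.3%). The mitochondrial gene ND6 had 9.70, 11.5 and 8.48 FPKM in EV 20C, against 37.1, 42.4 and 18.6 in EV 15C (log2 -1.56 ± 0.43, adjusted p = 0.0278), and its call was lost without any 1 of EV 15C replicates 1 and 2 and EV 20C replicates 1, 2 and 3. Neighbouring mitochondrial genes share transcripts, so their single values are uncertain.

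RNA of somatic markers was present in every library, and EV 20C r1 and EV 20C r3 had the lowest intestine, muscle and cuticle sums. Intestine markers summed to 178, 351 and 193 FPKM in EV 20C, against 303, 272 and 651 in EV 15C. Muscle markers summed to 159, 251 and 194 FPKM in EV 20C, against 251, 238 and 280.2 in EV 15C. Cuticle markers summed to 24.4, 53.8 and 26.1 FPKM in EV 20C, against 58.04, 59.4 and 106 in EV 15C. The intestine and muscle sums overlapped. Somatic gonad markers summed to 180, 253 and 221 FPKM in EV 20C, against 206, 200 and 231 FPKM in EV 15C, and overlapped. Within its group EV 20C r2 was highest for each of these sums, as was EV 15C r3. Of 17 tested intestine markers 1 fell, the fatty acid binding gene lbp-6, with 35.6, 63.0 and 50.7 FPKM in EV 20C, against 79.0, 77.6 and 84.1 in EV 15C (log2 -0.72 ± 0.17, adjusted p = 0.0151). Of 16 muscle markers 3 fell, among them mlc-2, a myosin light chain gene, with 25.4, 36.4 and 27.4 FPKM in EV 20C, against 47.2, 45.3 and 53.2 in EV 15C (log2 -0.70 ± 0.14, adjusted p = 0.00893). Without EV 20C r2 the falls were 3 and 5, and muscle falls were 1 without EV 15C r1 or EV 20C r3. Of 10 cuticle markers 4 fell, all collagen genes, and the count was 0 without EV 20C r3, 1 without any 1 of EV 15C replicates 1 and 3 and EV 20C r1, 2 without EV 15C r2 or iff-1 RNAi 15C r2, and 7 without EV 20C r2. The yolk protein gene vit-2, made in the intestine, had 19.6, 36.5 and 15.8 FPKM in EV 20C, against 25.3, 21.97 and 76.1 in EV 15C, with overlapping ranges and EV 15C r3 highest. The pharynx gland markers phat-3 to phat-6 were at 0 in all 6 libraries.

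Antimicrobial peptide genes of the epidermis had a lower summed level at 20°C, with 18.9, 28.3 and 23.6 FPKM in EV 20C, against 51.4, 47.3 and 57.0 FPKM in EV 15C, with no overlap. Of 13 tested members 9 fell and 1 rose, with a median log2 fold change of -0.77. The peptide gene nlp-24 had 2.32, 2.57 and 1.13 FPKM in EV 20C, against 6.01, 6.58 and 6.14 in EV 15C (log2 -1.304 ± 0.19, adjusted p = 0.00236). The peptide gene cnc-2 had 1.38, 0.929 and 0.875 FPKM in EV 20C, against 3.12, 2.95 and 3.05 in EV 15C (log2 -0.98 ± 0.15, adjusted p = 0.00268). Their 15°C values were within a narrow range, and EV 15C r3 did not stand apart. The falls were 5 without EV 15C r1, and the rise was lost without EV 15C r2, EV 20C r3 or the set-apart pair. Fewer epidermal cells and less peptide RNA per cell cannot be told apart in these libraries, and the part of carried-over soma in the calls of germ line genes was not tested.

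**Figure D4:**
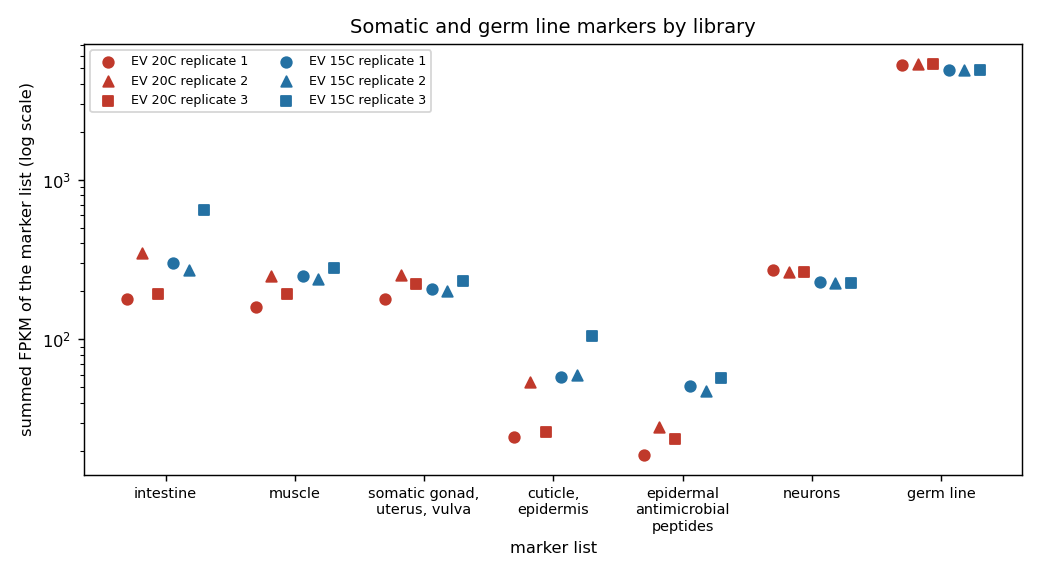
Summed FPKM (log scale) of somatic and germ line marker lists in each library, EV 20C in red at the left of each list and EV 15C in blue, with a marker shape for each replicate. The epidermal peptide sums do not overlap (18.9 to 28.3 FPKM in EV 20C against 47.3 to 57.0 FPKM in EV 15C), and in the intestine list EV 15C r3 is highest at 651 FPKM.

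The largest relative changes were in genes of low level. The saposin-like gene spp-9 (WBGene00004994, WBcel235 chromosome X from 11487784 to 11488203, plus strand), of a family with pore-forming members, had 7.21, 53.7 and 22.8 FPKM in EV 20C, against 0.162, 0.613 and 1.01 in EV 15C (log2 3.82 ± 0.59, adjusted p = 0.00285). Its EV 20C values were spread widely but lay above every EV 15C value. The nuclear receptor gene nhr-70 had 5.51, 6.42 and 5.01 FPKM in EV 20C, against 2.34, 1.94 and 1.98 in EV 15C (log2 1.103 ± 0.12, adjusted p = 0.000844). The gene F32D1.11, whose role the files do not give, had 9.41, 10.7 and 7.62 FPKM in EV 20C, against 3.99, 4.05 and 3.97 in EV 15C (log2 1.02 ± 0.13, adjusted p = 0.00136). In both genes the groups did not overlap. The lectin gene clec-266 rose by 1.21 with 1 high library, EV 20C r2 at 16.8 FPKM, and lost its call without any 1 of the EV 15C libraries or without iff-1 RNAi 15C r3. Among the falls, the gene F53B6.13 is listed at 0 in all EV 20C libraries, against 2.31, 4.36 and 1.94 FPKM in EV 15C. The invertebrate lysozyme gene ilys-5, of an enzyme family that cuts bacterial cell walls, had 25.5, 44.3 and 23.6 FPKM in EV 20C, against 65.1, 51.7 and 159.9 in EV 15C (log2 -1.42 ± 0.40, adjusted p = 0.0315), and its call was lost without EV 15C r1, EV 15C r3, EV 20C r1 or EV 20C r3. The sperm fate gene fog-3 had 2.55, 3.12 and 2.34 FPKM in EV 20C, against 7.26, 6.36 and 4.31 in EV 15C (log2 -0.91 ± 0.20, adjusted p = 0.0122), and of 75 sperm genes 12 were tested, with 2 lower and 0 higher.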

How the data were processed

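RNA of germ lines extruded from adult C. elegans was measured in 9 libraries, and the 6 of EV 20C and EV 15C are compared here. The labels' protocols describe poly-A selection, a stranded library kit and paired reads. The deposited values are FPKM per gene and library, computed by the authors. The submitters' processing notes name CASAVA and Cufflinks. Which aligner, build, gene annotation and strand setting were applied is not given in the sources used here, so values of genes that overlap on opposite strands are uncertain.

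Of 46245 gene IDs 43227 were matched to a symbol and 45990 to the WBcel235 annotation of Ensembl, used for positions, lengths and biotypes. Genes with a mean of at least 1 FPKM over the 9 libraries were compared on the log2(FPKM + 1) scale by limma 3.58.1 (R 4.3.3). All 9 libraries entered 1 fit with a variance trend and 6 residual degrees of freedom, with the contrast EV 20C minus EV 15C, two-sided tests and Benjamini-Hochberg adjustment over all tested genes at 0.05. Fold changes on this scale understate the change of low genes. Low values could not be turned into whole reads: with a depth of 36.2 to 41.8 (in 1000000 fragments), 85.3% to 88.7% of low values of single-transcript genes lay within 0.25 of a whole fragment, which is not nearly all, so no count model was used. That limits precision for genes near 1 FPKM. Of the tested genes 188 are listed at 0 in at least 1 of the 6 libraries.

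The comparison, the gene lists and the rule for named genes were chosen with earlier results of these data known. The rule named the 8 higher and 8 lower protein-coding genes with the largest changes and no overlap between the groups, once among those with a mean of at least 100 FPKM and once among all tested, in each list the tested members of lowest adjusted p (at most 4), called or not, and a fixed set of iff-1, glp-1, hsf-1, fat-7, vit-2, trpa-1, cey-1 to cey-4 and the chaperonin genes. Lists are described by counts and medians, without a set test. The fit was run on simulated data with independent noise, which says nothing of deviations that genes share within a library. Alternatives covered the pseudocount, the filter, the scaling, the variance trend, the libraries in the fit, a replicate block and leaving out each library. A planned search of promoters for motifs was not run, since no promoter sequences were used here.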

Additional observations from a re-analysis of the deposited data

How the results depend on the processing

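Under 9 alternatives that kept all 6 libraries and had no replicate block, genes called higher at 20°C numbered 1228 to 1807 and genes called lower 512 to 1041. These were a pseudocount of 0.1 or 5, no filter on low values or a mean of at least 5 FPKM, only the 6 EV libraries, median ratio scaling, quantile normalization, scaling without the 10 highest genes and no variance trend. With 1 library left out, the higher genes numbered 1091 to 1729 and the lower genes 397 to 789. Without EV 15C r3 and EV 20C r2 together they numbered 870 and 495, a fit with fewer samples. The replicate block gave 1479 higher and 679 lower genes, and replicate numbers did not pair the libraries: deviations of same-numbered EV 20C and EV 15C libraries correlated at 0.0817, -0.0922 and -0.114 across genes, and EV 20C r2 deviated most with EV 15C r3 (0.21). Of 178 genes named by rule 148 were called, and 111 of these kept the call under every alternative. None of the 178 reversed as a called gene. With no filter on low values the calls of ND6, clec-266, ilys-5, spp-14, coel-1, tbcc-1 and hsp-60 were lost, with the replicate block those of ND6, clec-266, ilys-5 and spp-14, and with the 6 EV libraries alone those of clec-266, ilys-5, spp-14, tbcc-1 and hsp-60. Depth limits genes near 1 FPKM, where the median coefficient of variation within EV 20C was 21.7% at 1 to 5 FPKM, against 3.49% at 100 to 500 FPKM. The search of promoters for motifs was not run.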

Other observations

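Families of ubiquitin ligase adaptors, grouped by gene symbol after the values were seen, were called higher at 20°C more often than the 19.3% of all tested genes, and no test of this was made. Of 17 tested genes of the skr family, which encodes Skp1-related adaptors of SCF ubiquitin ligases, 8 rose and 1 fell, with a median log2 fold change of 0.42. The gene skr-16 had 29.8, 28.3 and 28.5 FPKM in EV 20C, against 20.5, 19.3 and 19.6 in EV 15C (log2 fold change 0.52, limma adjusted p = 0.000832). The gene skr-15 had 10.9985, 12.13 and 12.16 FPKM in EV 20C, against 6.69, 6.75 and 6.95 in EV 15C (0.71, adjusted p = 0.00101). In both genes the groups were well apart. The most abundant of the called members, skr-18, went the other way, with 136, 125 and 129 FPKM in EV 20C, against 152, 158 and 144 in EV 15C (-0.22).

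Of 25 bath genes, which encode BTB and MATH domain adaptors of CUL-3 ligases, 10 rose and 0 fell, and of 36 fbxa genes, which encode F-box proteins, 16 rose and 4 fell. The F-box gene fbxa-95 had 48.4, 43.3 and 42.7 FPKM in EV 20C, against 27.9, 27.5 and 27.7 in EV 15C (0.67, adjusted p = 0.000422). Without EV 15C r1 the rises were 5 skr and 5 bath genes, without EV 20C r3 they were 5 skr genes, and without EV 15C r2 they were 10 fbxa genes. Without EV 15C r3 and EV 20C r2 together they were 3 skr, 5 bath and 8 fbxa genes. Median ratio scaling gave 8, 6 and 14. Members of these families have close copies, and reads shared between them cannot be told apart here.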
